A study of Homo sapiens with 12 samples.

Results

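The BCL2 family genes followed here are 10 regulators of mitochondrial cell death, taken by symbol as a fixed list from the 57820 genes of the table, and 10 of 10 were found and passed the filter on low values. Of these, 4 promote survival (BCL2, BCL2L1, BCL2A1 and MCL1), 2 form pores in the outer mitochondrial membrane (BAX and BAK1) and 4 belong to the BH3-only class that triggers death (BBC3, PMAIP1, BCL2L11 and BID). The 12 RNA-seq libraries came from HL60, a promyelocytic line of human acute myeloid leukaemia. The cells carried either the empty vector pRRL-EV-puro (EV) or pRRL-TFEBS211A-puro, in which doxycycline switches on the S211A mutant of TFEB, the transcriptional activator of the lysosome. Both lines received vehicle or doxycycline, and each of the 4 groups (EV vehicle, EV doxycycline, TFEB vehicle, TFEB doxycycline) held 3 biologically independent experiments, per the series description. The labels list doxycycline at 1 µg/ml for 48 h for every library, vehicle included, so that treatment was read from the treatment label and the title. The comparison asks how the TFEB S211A-expressing cells differ from the other 3 groups. All groups are transduced derivatives of 1 cell line, and nothing in the labels says how many clones or transductions each line holds.

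Proteins of the BCL2 family decide whether the outer mitochondrial membrane stays closed. Pro-survival members bind and hold BAX, BAK1 and the BH3-only proteins. When BH3-only proteins outweigh them, BAX and BAK1 assemble into pores, cytochrome c leaves the mitochondria and caspases are activated. Myeloid leukaemia cells depend to varying degrees on BCL2, MCL1, BCL-xL (the product of BCL2L1) and BFL-1 (the product of BCL2A1), which is why drugs that mimic BH3 proteins are aimed at them. TFEB binds the CLEAR element, a sequence built around the E-box CACGTG.

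The promoter letters are shown because TFEB, the protein induced here, reads this E-box. RefSeq promoter windows of 300 bases (250 before to 50 after an annotated start, GRCh38.p14) were found for 9 of 10 members, in 14 windows, and none was at hand for MCL1. The window of BAX (chr19:48954625-48954924, plus strand) held 4 matches to CACGTG, each of them also a match to TCACGTG on 1 strand or the other. BBC3 (chr19:47232618-47232917, minus strand) held 1 match to both motifs, and BID (chr22:17773934-17774233, minus strand) held 1 match to CACGTG alone. Letters run 5′ to 3′ on the gene's strand, with the E-box and any T before or A after it in capitals.
BAX: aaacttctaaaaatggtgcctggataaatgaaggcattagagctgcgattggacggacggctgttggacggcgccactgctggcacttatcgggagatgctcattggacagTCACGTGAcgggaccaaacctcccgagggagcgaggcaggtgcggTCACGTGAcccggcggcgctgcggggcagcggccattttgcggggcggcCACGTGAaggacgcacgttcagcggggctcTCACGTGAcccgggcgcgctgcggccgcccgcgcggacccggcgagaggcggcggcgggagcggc
BBC3: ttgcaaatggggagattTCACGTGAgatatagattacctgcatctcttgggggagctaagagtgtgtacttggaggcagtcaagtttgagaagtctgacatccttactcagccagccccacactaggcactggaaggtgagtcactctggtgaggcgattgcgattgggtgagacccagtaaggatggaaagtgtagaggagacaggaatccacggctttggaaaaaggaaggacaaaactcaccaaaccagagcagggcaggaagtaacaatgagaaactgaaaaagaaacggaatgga
BID: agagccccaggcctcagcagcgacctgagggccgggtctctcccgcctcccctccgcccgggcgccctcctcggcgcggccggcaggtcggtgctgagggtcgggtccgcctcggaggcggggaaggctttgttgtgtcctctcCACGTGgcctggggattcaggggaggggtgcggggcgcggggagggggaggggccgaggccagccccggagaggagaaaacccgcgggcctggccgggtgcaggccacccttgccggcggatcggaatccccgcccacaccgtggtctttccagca
The centre of the first match lay 135 bases before the BAX start, 229 before the BBC3 start and 103 before this BID start. A second, overlapping BID window held the same match, and the other 3 BID windows held none. No match was found in the windows of BCL2, BCL2L1 (2 windows), BCL2A1, BAK1, PMAIP1 and BCL2L11. Both strands were searched. CACGTG occurred in 3 of 9 member genes, against 8.77% of 27305 genes (7.26% of 35116 windows), and TCACGTG, which contains it, in 2 of 9 against 4.49% of genes (3.71% of windows). A match describes the letters only, and no binding was measured here.

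TFEB (ENSG00000112561.13) matched the labels, at 79.8 to 196 normalized reads in the 9 control libraries and 14470.4 to 22629 in the 3 of TFEB doxycycline. The libraries held 4474007 (EV doxycycline replicate 3) to 22488047 (EV vehicle replicate 2) recovered reads, with mitochondrial genes at 13.3% to 17.9% in TFEB doxycycline and 21.0% to 33.1% in the 9 controls, so that this share moved with the induced group, and its part in the results was not tested. Of 7 promyelocyte genes, the summed level was 63858 to 211341 in EV vehicle, 4551 to 28398 in EV doxycycline, 47713 to 93104 in TFEB vehicle and 7527 to 10614 in TFEB doxycycline, with none at 0, and their part in the results below was not tested. Markers of B, T and NK, erythroid, epithelial and fibroblast cells had no single value above 132, and their lists summed to at most 344. The deposited size factors left the level of well-expressed genes different between groups: the median log2 difference of the 7290 nuclear genes whose mean reached 200 was 0.73 for TFEB doxycycline against TFEB vehicle, 1.38 against EV doxycycline and 0.06 against EV vehicle, and -1.29 for EV doxycycline against EV vehicle. Each difference is therefore given on 2 scales, first as deposited and then after scaling each library to the median ratio of those 7290 genes (the expressed-gene scale). The second scale sets the typical expressed gene to no change, so that it cannot show a change of all expressed genes together. Levels are normalized reads without regard to gene length and are compared between groups, not between genes. Tests are limma fits over 23128 genes, with a call at a Benjamini-Hochberg adjusted p under 0.05. In bulk RNA, fewer cells of a kind and less RNA per cell cannot be told apart.

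**Figure D1:**
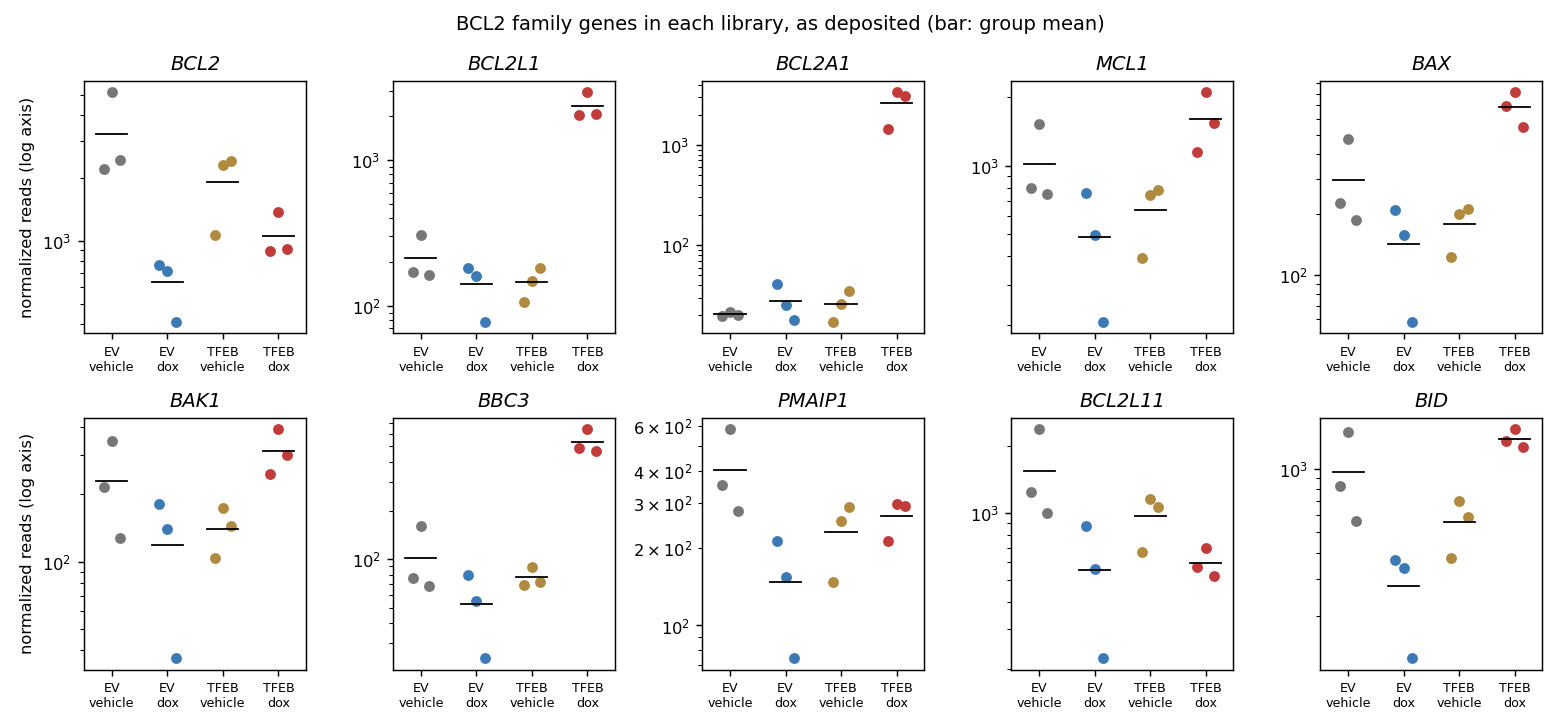
Deposited normalized reads (log axis) of the 10 genes in each of the 12 libraries, by group, with 1 point per library and a bar at the group mean. BCL2A1, BCL2L1 and BBC3 in TFEB doxycycline lie above every other library, while BCL2 lies lower in both doxycycline groups than in EV vehicle.

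Among the pro-survival genes, BCL2L1 and BCL2A1 rose with TFEB doxycycline against each control group on both scales, and BCL2 and MCL1 moved in opposite directions on the expressed-gene scale. BCL2A1 (ENSG00000140379.7), which encodes BFL-1, an NF-kB-responsive survival protein, read 1439, 3332 and 3079 normalized reads in TFEB doxycycline. It read 17.4, 25.7 and 34.8 in TFEB vehicle, 40.8, 25.2 and 17.9 in EV doxycycline and 19.9, 21.8 and 20.3 in EV vehicle. The 9 control values lay at the level below which most genes of the table fall, since the upper quartile of all genes was 24.8 to 32.0 per library, so they sit near background. The lowest TFEB doxycycline library was far above the highest control library, and the groups did not overlap. The log2 difference against TFEB vehicle was 6.56 (SE 0.35, adjusted p = 1.88e-19) as deposited and 5.82 (SE 0.33, adjusted p = 8.11e-10) on the expressed-gene scale. Because the control level is near background, the size of this fold is less certain than its direction.

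BCL2L1 (ENSG00000171552.8) encodes BCL-xL and, by alternative splicing, the shorter death-promoting BCL-xS, which a count per gene does not separate. Its values in TFEB doxycycline were 2045, 2921 and 2066. In TFEB vehicle they were 107, 148 and 182, in EV doxycycline 183, 161 and 78.0, and in EV vehicle 169.8, 308 and 163. Every TFEB doxycycline library lay above every control library, and on the expressed-gene scale the 3 were close together, at 1594, 1607 and 1522. Against TFEB vehicle the log2 difference was 4.01 (SE 0.44, adjusted p = 7.27e-10), and 3.26 (SE 0.14, adjusted p = 5.08e-11) on the expressed-gene scale. Against EV doxycycline it was 4.12 and 2.75, and against EV vehicle 3.49 and 3.40, on the same 2 scales.

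BCL2 (ENSG00000171791.10), the founding survival gene of the family, read 895, 1371 and 912 in TFEB doxycycline against 1060.2, 2294 and 2401 in TFEB vehicle. As deposited these groups overlapped, with a log2 difference of -0.79 (SE 0.54, adjusted p = 0.322, limma; 95% interval -1.88 to 0.29). After scaling on expressed genes they did not overlap: BCL2 was 697, 754 and 672 with doxycycline and 1697, 2247 and 2305 with vehicle, a log2 difference of -1.54 (SE 0.17, adjusted p = 1.18e-06). EV vehicle, the control whose expressed genes stood nearest to TFEB doxycycline as deposited, held 2194, 5121 and 2438, so that BCL2 was lower in TFEB doxycycline by a log2 difference of -1.54 (SE 0.54, adjusted p = 0.0342) as deposited and -1.62 (SE 0.17) on the expressed-gene scale. The deposited call was lost without EV vehicle replicate 2 (-1.15, adjusted p = 0.158), and also without EV doxycycline replicate 2, TFEB vehicle replicate 2 or any 1 TFEB doxycycline library, where adjusted p was up to 0.142. Against EV doxycycline, where BCL2 was already low at 768, 718 and 411, the sign turned with the scale, from 0.77 (adjusted p = 0.275) as deposited to -0.61 (SE 0.17, adjusted p = 0.00626) on the expressed-gene scale.

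MCL1 (ENSG00000143384.8), a short-lived survival protein, read 1146, 2099 and 1549.7 in TFEB doxycycline against 395, 742 and 782 in TFEB vehicle, and these groups did not overlap. Its log2 difference was 1.34 (SE 0.52, adjusted p = 0.0607) as deposited and 0.59 (SE 0.14, adjusted p = 0.00232) on the expressed-gene scale, where the values were 893, 1155 and 1142 against 632, 727 and 751. At 1.34 the deposited difference missed the threshold narrowly. It passed under other settings, among them a filter at a mean of 50, the replicate block, DESeq2 and the compared groups alone (adjusted p = 0.046, 0.0299, 0.00483 and 0.00139). It also passed without replicate 2 of EV vehicle or replicate 1 or 3 of EV doxycycline. Those EV libraries lie outside this comparison, so leaving them out changed the shared spread and not the difference. With any 1 of the other libraries left out it stayed uncalled (adjusted p up to 0.269, limma). Against EV doxycycline (757, 498 and 207) MCL1 rose on both scales, by 1.86 (adjusted p = 0.00509) and 0.48 (adjusted p = 0.00751). Against EV vehicle MCL1 was not called as deposited (0.68, adjusted p = 0.435, limma). It was called there on the expressed-gene scale (0.59, adjusted p = 0.00229), and with TMM factors, upper quartiles and edgeR (adjusted p up to 0.029). Its change on the expressed-gene scale was the smallest of the 3 pro-survival genes that were higher there against TFEB vehicle.

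**Figure D2:**
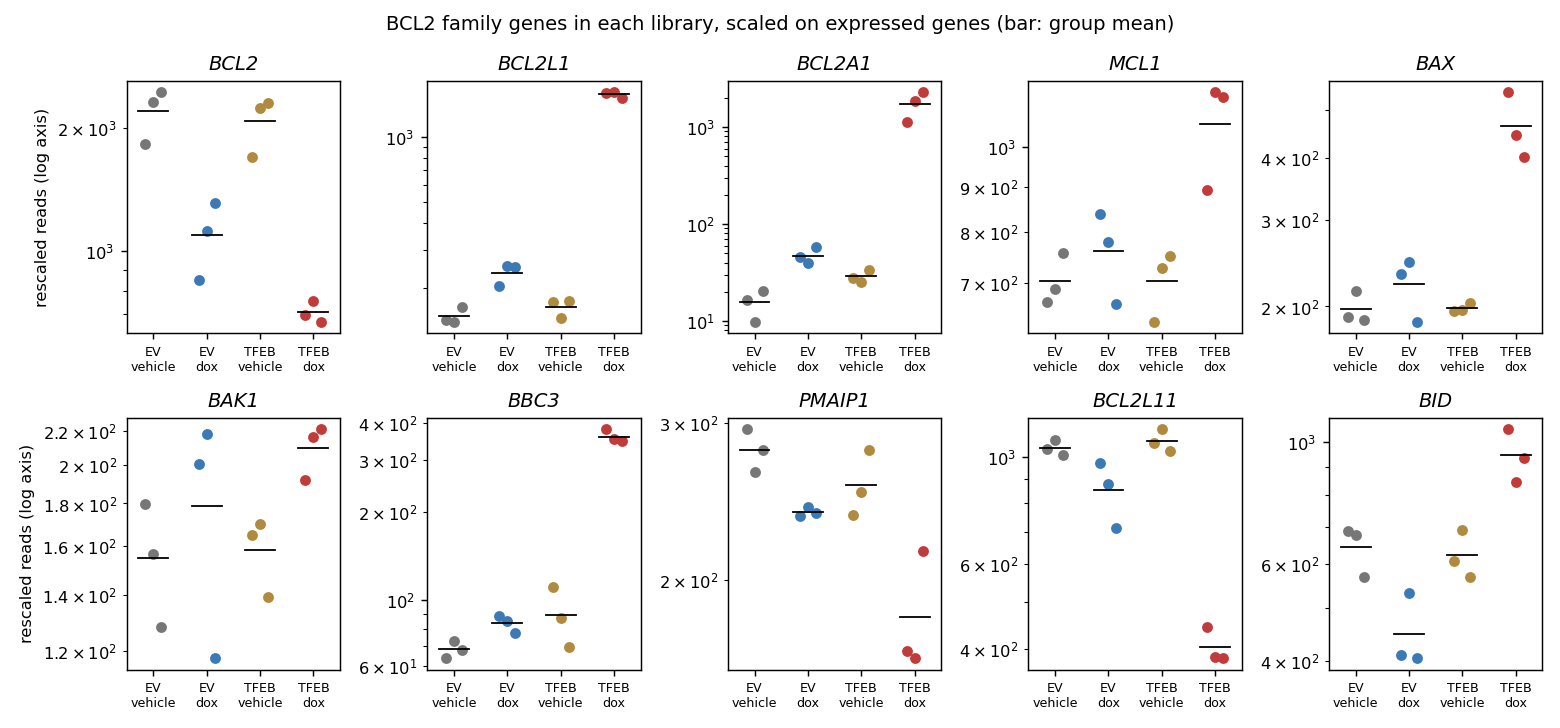
The same 10 genes after scaling each library on the expressed genes (log axis), with 1 point per library, 4 groups of 3 and a bar at each group mean. BCL2 and BCL2L11 in TFEB doxycycline (672 to 754 and 383 to 444) lie below every library of the other groups, which the deposited scale does not show.

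Of the 2 pore-forming genes, BAX rose and BAK1 did not pass the test against TFEB vehicle. BAX (ENSG00000087088.15) read 698, 811 and 545 in TFEB doxycycline, 122, 201 and 212 in TFEB vehicle, 209.7, 158 and 58.3 in EV doxycycline and 228, 475 and 187 in EV vehicle. All 3 TFEB doxycycline libraries were above all 9 controls. The log2 difference against TFEB vehicle was 1.96 (SE 0.45, adjusted p = 0.000958) as deposited and 1.21 (SE 0.16, adjusted p = 1.34e-05) on the expressed-gene scale. Against EV doxycycline BAX rose by 2.43 and 1.06 on these scales, and against EV vehicle by 1.31 (adjusted p = 0.0333) and 1.22 (adjusted p = 1.16e-05). Leaving out any 1 TFEB doxycycline library, or EV vehicle replicate 1 or 3, ended the deposited call against EV vehicle (adjusted p up to 0.156).

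BAK1 (ENSG00000030110.8), the partner of BAX in pore formation, read 246, 393 and 299.7 in TFEB doxycycline against 103, 174 and 145 in TFEB vehicle. These groups did not overlap, yet the log2 difference of 1.15 (SE 0.45, adjusted p = 0.0581, limma) was not called, and on the expressed-gene scale it was 0.41 (SE 0.23, adjusted p = 0.157; 95% interval -0.07 to 0.89). The deposited call was made under other settings, among them a pseudocount of 10, a filter at a mean of 50, the replicate block and edgeR (adjusted p = 0.0354, 0.0314, 0.0133 and 0.0192). It was also made without replicate 2 or 3 of EV vehicle or replicate 1 or 3 of EV doxycycline, libraries outside this comparison. With any 1 of the other libraries left out BAK1 stayed uncalled (adjusted p up to 0.227, limma). Against EV doxycycline (181, 139 and 36.8) the deposited difference of 1.64 was called (adjusted p = 0.00368), but not without EV doxycycline replicate 3 (0.95, adjusted p = 0.0616), and on the expressed-gene scale it was 0.28 (adjusted p = 0.269). BAK1 was thus not called against any of the 3 controls on the expressed-gene scale, while BAX was called against each.

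The 4 BH3-only genes split. BBC3 and BID were called higher with TFEB doxycycline against TFEB vehicle and EV doxycycline on both scales, whereas BCL2L11 and PMAIP1 were called lower on the expressed-gene scale and not called as deposited. BBC3 (ENSG00000105327.11) encodes PUMA, a strong activator of death that stress induces. It read 488, 639 and 469.7 in TFEB doxycycline, 69.4, 89.2 and 72.5 in TFEB vehicle, 79.8, 54.5 and 24.2 in EV doxycycline and 76.1, 161 and 67.8 in EV vehicle. The lowest induced library was above the highest control. Against TFEB vehicle the log2 difference was 2.77 (SE 0.38, adjusted p = 1.81e-07), and 2.02 (SE 0.22, adjusted p = 1.18e-06) on the expressed-gene scale.

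BID (ENSG00000015475.14), which caspase-8 cleaves to link death receptors to mitochondria, read 1355, 1537 and 1269.6 in TFEB doxycycline and 379, 706 and 591 in TFEB vehicle, without overlap. The deposited difference of 1.35 (SE 0.50, adjusted p = 0.0478, limma) lay at the threshold and was lost when any of the 3 TFEB vehicle libraries, the 3 TFEB doxycycline libraries, EV vehicle replicate 1 or EV doxycycline replicate 2 was left out, with adjusted p up to 0.208, and with no filter on low values (adjusted p = 0.0628). The expressed-gene value was 0.60 (SE 0.14, adjusted p = 0.00304). Against EV doxycycline, where BID read 369, 339.7 and 126, the difference was also called, at 2.45 (adjusted p = 0.000156) and 1.08 (adjusted p = 1.22e-05). Against EV vehicle BID was not called as deposited (0.64, adjusted p = 0.448, limma). It was called there on the expressed-gene scale (0.55, adjusted p = 0.0059), and with TMM factors, upper quartiles and edgeR (adjusted p up to 0.0269).

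BCL2L11 (ENSG00000153094.17) encodes BIM, the BH3-only protein that binds all pro-survival members. It read 570.0, 700.4 and 519.8 in TFEB doxycycline against 668, 1163 and 1068 in TFEB vehicle, and the groups overlapped as deposited (-0.66, SE 0.52, adjusted p = 0.406). Scaled on expressed genes, BCL2L11 was 444, 385 and 383 against 1069, 1139 and 1025, a log2 difference of -1.41 (SE 0.13, adjusted p = 1.52e-07). Against EV vehicle (1243, 2386 and 1003) it was -1.28 (adjusted p = 0.0788) as deposited and -1.37 (adjusted p = 2.09e-07) on the expressed-gene scale. Against EV doxycycline the sign turned with the scale, 0.31 (adjusted p = 0.67) as deposited and -1.07 (SE 0.13, adjusted p = 3.95e-06) on the expressed-gene scale.

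PMAIP1 (ENSG00000141682.11) encodes NOXA, which mainly opposes MCL1. It read 214, 297 and 292 in TFEB doxycycline and 148, 256 and 291 in TFEB vehicle, overlapping, with a difference of 0.25 (SE 0.43, adjusted p = 0.73). Scaling on expressed genes turned the sign, to -0.50 (SE 0.15, adjusted p = 0.0186), from 237, 251 and 279 to 167, 163 and 215. That call was lost when TFEB doxycycline replicate 1 or 2, or TFEB vehicle replicate 3, was left out, at an adjusted p of 0.056, 0.0897 and 0.0717. Against EV doxycycline the difference was -0.40 (adjusted p = 0.0307), no longer called once TFEB doxycycline replicate 1 or 2 or EV doxycycline replicate 2 or 3 was left out (adjusted p up to 0.117), and as deposited it was 0.97 (adjusted p = 0.0806). That deposited difference was called, in the opposite direction, without EV doxycycline replicate 1 (1.30, adjusted p = 0.0186), with the replicate block (adjusted p = 0.049) and with a filter at a mean of 50 (adjusted p = 0.0499).

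Counted together, 5 of 10 genes were called higher and 0 lower in TFEB doxycycline against TFEB vehicle as deposited, beside 17.4% and 4.66% of all genes tested. The 5 were BCL2A1, BCL2L1, BBC3, BAX and BID. At an unadjusted p under 0.05 limma gave 7 and 0, edgeR on recovered reads called 7 and 2 and DESeq2 7 and 1. On the expressed-gene scale 6 were called higher, MCL1 joining those 5, and 3 lower (BCL2, BCL2L11 and PMAIP1), beside 14.4% and 20.7% of all genes. Genes of well-expressed level were called more often than the table as a whole on that scale: 34.4% higher and 33.2% lower of the 7290, a set that held 9 of the 10 genes (not BBC3). The median log2 difference of the 10 genes was 1.35 as deposited and 0.60 on the expressed-gene scale. Over all genes tested it was -0.0017 and -0.72, and over the 7290 expressed genes 0.73 and -0.018. The share of those 7290 called as deposited was not counted for any comparison.

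Against EV doxycycline 7 genes were called higher and 0 lower as deposited (27.2% and 5.37% of all genes), and 6 and 3 on the expressed-gene scale (14.2% and 57.6%, but 36.4% and 35.4% of the 7290 expressed genes). At an unadjusted p limma gave 8 and 0 as deposited, and edgeR and DESeq2 both called 7 and 0. Against EV vehicle 4 were higher and 1 lower as deposited (12.2% and 8.51%), and 6 and 3 on the expressed-gene scale (15.9% and 16.2%, and 34.6% and 33.3% of the expressed genes). The same 9 genes were called in the same direction against each of the 3 controls on the expressed-gene scale: BCL2A1, BCL2L1, MCL1, BAX, BBC3 and BID higher, and BCL2, BCL2L11 and PMAIP1 lower. These 3 comparisons share the TFEB doxycycline libraries and are not independent of one another. How many of all genes, or of the 7290, were called in the same direction against all 3 controls was not counted. The 9 are therefore not read as particular to the family. The PMAIP1 calls against TFEB vehicle and EV doxycycline were lost with single libraries left out, as given above.

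**Figure D3:**
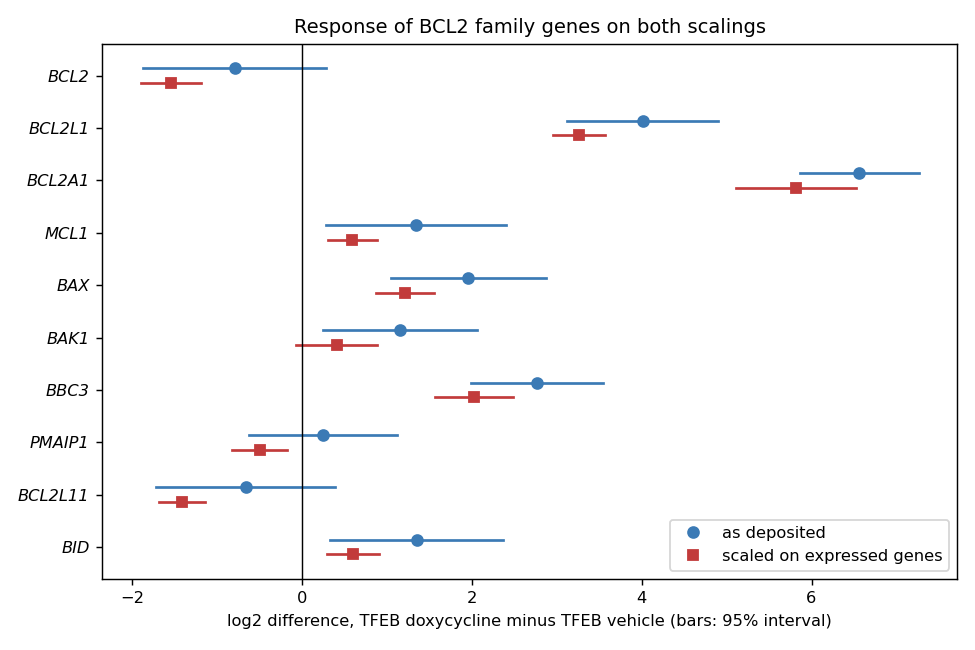
Log2 differences (x axis) of the 10 genes between TFEB doxycycline and TFEB vehicle, as deposited (circles) and scaled on expressed genes (squares), with 95% intervals from limma. BCL2A1 and BCL2L1 lie farthest above 0 (6.56 and 4.01 as deposited), the intervals of BCL2 and BCL2L11 lie below 0 only on the expressed-gene scale, and PMAIP1 changes sides of 0 between the scales.

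Doxycycline in the EV line, where no TFEB is induced, was read as the background of the treatment. As deposited 4 of the 10 genes fell and 0 rose, beside 23.3% and 3.39% of all genes tested. BCL2 went from 2194, 5121 and 2438 to 768, 718 and 411, without overlap (-2.30, SE 0.54, adjusted p = 0.00462). BCL2L11, BID and PMAIP1 fell by 1.59, 1.82 and 1.51 on the log2 scale. The median of the 7290 expressed genes was itself -1.29 in this comparison, so these falls hold that shift. On the expressed-gene scale PMAIP1 was not called (-0.23, adjusted p = 0.209, limma). The count of falls was 0 without EV vehicle replicate 2 (for BCL2, -1.92, adjusted p = 0.0547), 1 without EV doxycycline replicate 3, 7 without replicate 3 of EV vehicle and 8 without replicate 1 of EV doxycycline. For the count of 0 rises, limma gave 0 at an unadjusted p, DESeq2 0 and edgeR 1.

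The EV line gave, on the expressed-gene scale, 2 rises and 2 falls, beside 44.1% and 5.75% of all genes and 20.9% and 17.5% of the expressed genes, a share close to that of the 10. BCL2 fell there as well (-1.02, SE 0.17, adjusted p = 0.000963), from 1832, 2317 and 2446 to 851, 1123 and 1313. BID fell (-0.53, adjusted p = 0.0157), although not when replicate 2 of EV vehicle or replicate 3 of EV doxycycline was left out (adjusted p = 0.0757 and 0.0553). BCL2L1 rose by 0.66 (SE 0.14, adjusted p = 0.00631) on this scale, from 142, 140 and 163 to 203, 252 and 249, while as deposited its sign was the other way (-0.62, adjusted p = 0.262). BCL2A1 rose by 1.58 (adjusted p = 0.0052) from values near background, to 45.2, 39.4 and 57.3. As deposited it was not called (0.34, adjusted p = 0.439). The median difference of all genes tested was itself 1.05 on the expressed-gene scale, so this rise is not read as particular to BCL2A1. In the main fit MCL1, BAX, BAK1 and BBC3 were not called on either scale. Their deposited differences were -0.97 to -1.18 and their expressed-gene differences 0.11 to 0.29, so that their sign also turned with the scale. As deposited, a filter at a mean of 50 called BAX, BAK1 and BBC3 lower (adjusted p = 0.0323, 0.0308 and 0.0294, limma). A pseudocount of 10 called BAK1 (adjusted p = 0.0479). Leaving out EV vehicle replicate 3 called BAX, BAK1 and BBC3 lower (adjusted p up to 0.0297). Each of these genes, MCL1 included, was called lower without EV doxycycline replicate 1 (adjusted p up to 0.0152). Replicates of the same number deviated together between EV vehicle and EV doxycycline (correlations of 0.21, 0.40 and 0.72), and with the number as a block BAX, BAK1 and BBC3 were called lower as deposited (adjusted p = 0.0252, 0.0171 and 0.0221), which made 7 falls, while MCL1 was not (adjusted p = 0.0501).

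Whether doxycycline acted differently in the TFEB line than in the EV line was tested as the interaction of vector and treatment. As deposited 8 of 10 genes were called higher and 0 lower (29.2% and 6.15% of all genes), with 8 and 0 by limma at an unadjusted p and 8 and 0 called by edgeR and by DESeq2. On the expressed-gene scale 6 were higher and 1 lower (11% and 57.8% of all genes, and 31.1% and 29.9% of the expressed genes). BCL2A1 had the largest value (6.22 as deposited, 4.24 on the expressed-gene scale), then BCL2L1 (4.64 and 2.61), BBC3 (3.74 and 1.73), BID (3.17 and 1.13) and BAX (3.08 and 1.05). MCL1 followed with 2.52 and 0.48, the second of which (adjusted p = 0.036) was lost when any of 6 libraries was left out (TFEB doxycycline replicates 2 and 3, EV vehicle replicates 2 and 3, replicate 3 of EV doxycycline and replicate 1 of TFEB vehicle, adjusted p up to 0.0923). BID therefore differed in direction between the lines on either scale, falling with doxycycline in EV cells and rising in TFEB cells. For BCL2 the interaction was not called on either scale (1.51, adjusted p = 0.111, and -0.53, adjusted p = 0.055), so its response in TFEB cells was not shown to differ from that in EV cells. With replicate 3 of EV vehicle, replicate 1 of EV doxycycline or replicate 1 of TFEB vehicle left out, the expressed-gene value was called, at -0.61, -0.70 and -0.67. BCL2L11 showed the reverse order on the expressed-gene scale: it was called lower in the interaction (-1.12, SE 0.18, adjusted p = 0.00018) and its change in EV cells was not called (-0.30, adjusted p = 0.0596, and -0.40, adjusted p = 0.0207, without EV doxycycline replicate 1), while as deposited the interaction was 0.92 (adjusted p = 0.318).

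**Figure D4:**
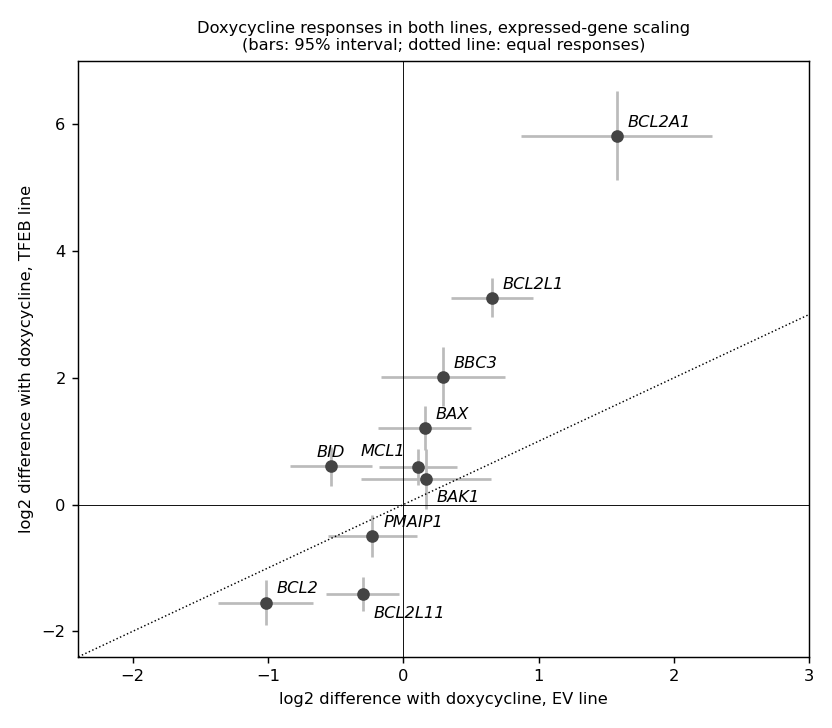
Log2 difference with doxycycline in the EV line (x axis) against that in the TFEB line (y axis) for the 10 genes on the expressed-gene scale, with 95% intervals from limma and a dotted line of equal responses. BCL2A1, BCL2L1, BBC3, BAX and BID lie above the line with interaction values of 1.05 to 4.24, and BCL2L11 lies below it at -1.12.

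Without doxycycline the vectors gave no called difference. Between TFEB vehicle and EV vehicle limma called 0 of 10 genes higher and 0 lower on either scale, beside 0% and 0% of all genes tested. At an unadjusted p 0 were found as deposited and 1 on the expressed-gene scale (BCL2A1, higher), and edgeR and DESeq2 called 0. The deposited differences ran from -0.79 (PMAIP1) to 0.26 (BCL2A1) and the expressed-gene differences from -0.13 (PMAIP1) to 0.89 (BCL2A1), and the 95% interval reached lowest for BCL2 as deposited, to -1.82.

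Ratios between members within a library do not depend on how libraries are scaled, apart from the added pseudocount. Each is the log2 ratio of normalized reads plus 1, and only its change between groups is read, since gene length sets its level. With 3 libraries against 3, an exact two-sided permutation test cannot go below p = 0.1, and 8 ratios were computed, so that none can pass a threshold of 0.05. The BCL2L1/BCL2 ratio was 1.15 ± 0.05 in TFEB doxycycline, -3.65 ± 0.33 in TFEB vehicle, -2.20 ± 0.17 in EV doxycycline and -3.88 ± 0.18 in EV vehicle (SD, n = 3, exact permutation p = 0.1 for TFEB doxycycline against both). The change was 4.81 against TFEB vehicle and 3.35 against EV doxycycline. In the EV line doxycycline shifted the same ratio by 1.68, also without overlap (exact p = 0.1), which is a smaller shift in the same direction.

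BCL2 lost ground to MCL1: the BCL2/MCL1 ratio went from 1.42 to 1.63 over the TFEB vehicle libraries to -0.76 to -0.36 over those of TFEB doxycycline, a change of -2.13. In EV doxycycline it was 0.02 to 0.98, lower than in EV vehicle (1.46 to 1.75) by 1.13 on the log2 scale. BCL2L1 gained on MCL1 by 2.67 against TFEB vehicle and 2.26 against EV doxycycline, and BCL2A1 gained on MCL1 by 5.22 and 4.63. In EV cells these ratios were higher with doxycycline too, by 0.55 and 1.52, without overlap (exact p = 0.1 each). BCL2A1 lay near background in both EV groups, so the change of 1.52 is not read as particular to BCL2A1. The pro-survival transcripts therefore differed in make-up between TFEB doxycycline and every control library, with BCL2L1 and BCL2A1 up relative to BCL2 and MCL1.

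Among the death genes, BBC3 gained on BCL2L11 by 3.43 against TFEB vehicle and 3.14 against EV doxycycline, and on PMAIP1 by 2.52 and 2.48. In EV cells doxycycline shifted these ratios the same way by less, 0.61 and 0.54, without overlap (exact p = 0.1 each). The BCL2L11/BID ratio was -1.29 to -1.13 in TFEB doxycycline against 0.59 to 1.24 over the 9 control libraries, a change of -2.02 against TFEB vehicle. With doxycycline in EV cells the BCL2L11/BID ratio changed by 0.23 (exact p = 0.3, groups overlapping). The BAX/BAK1 ratio was 0.86 to 1.50 in TFEB doxycycline and 0.08 to 0.65 in the 9 controls, a change of 0.80 against TFEB vehicle (exact p = 0.1) and of -0.01 with doxycycline in EV cells (exact p = 1).

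**Figure D5:**
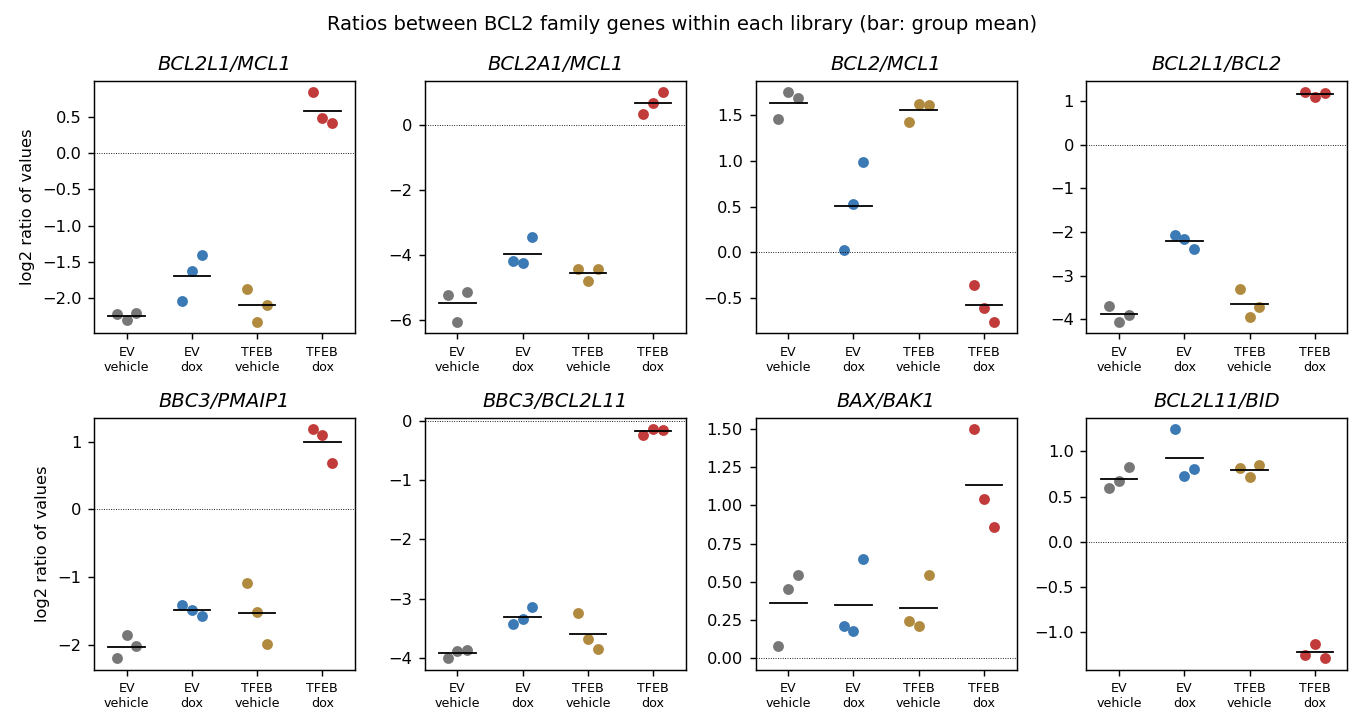
Log2 ratios between pairs of genes within each of the 12 libraries, by group, with 1 point per library and a bar at the group mean. For each of the 8 ratios the TFEB doxycycline libraries stand clear of all 9 control libraries. The BAX/BAK1 ratio shows the smallest gap (0.86 against 0.65 for the nearest libraries). The pairs were chosen with earlier results of these data known. How often other pairs of genes separate in this way was not counted, so the separation is not read as particular to these pairs.

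Other genes of the pathway were counted from fixed lists in TFEB doxycycline against TFEB vehicle. They are read beside the shares of all genes called higher and lower, 17.4% and 4.66% as deposited and 14.4% and 20.7% on the expressed-gene scale. Of the 7290 expressed genes, 34.4% were called higher and 33.2% lower on the expressed-gene scale. A count near such shares is no result about a list. Of 12 further family genes 11 were tested, with 3 higher and 0 lower as deposited and 3 higher and 3 lower on the expressed-gene scale, and their median was 0.04 and -0.69, close to that of all genes tested. BNIP3L and BNIP3, BH3-like proteins of the outer mitochondrial membrane that recruit autophagy to mitochondria, went from 315 ± 70.1 to 1891 ± 186 and from 197 ± 71.7 to 840.1 ± 141 normalized reads (SD, n = 3), log2 differences of 2.60 and 2.14 as deposited and 1.85 and 1.39 on the expressed-gene scale. BCL2L2, which encodes the survival protein BCL-w, rose by 1.56 and 0.82.

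Among 13 apoptosome and caspase genes 2 were higher and 1 lower as deposited, and 1 and 5 on the expressed-gene scale, with the rises near the share of all genes. CASP2, an initiator caspase, fell from 1498 ± 355 to 410.1 ± 80.4 (-1.86, SE 0.54, adjusted p = 0.00893, and -2.61, SE 0.14, on the expressed-gene scale), though the deposited call needed TFEB vehicle replicate 2 and TFEB doxycycline replicate 3 (adjusted p = 0.0573 and 0.0553 without them).

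Of 7 inhibitors of apoptosis and their antagonists 3 were higher and 0 lower (3 and 1 on the expressed-gene scale). XIAP, which blocks caspases directly, went from 322 ± 86.6 to 1880.3 ± 356 (2.56, SE 0.50, adjusted p = 8.63e-05, and 1.81, SE 0.12). BIRC6 and BIRC2 rose by 1.65 and 1.41 as deposited and by 0.90 and 0.66 on the expressed-gene scale. Leaving out any 1 of the 6 TFEB libraries ended the deposited BIRC6 call (adjusted p up to 0.135), and leaving out TFEB doxycycline replicate 2 or 3, or replicate 1 of TFEB vehicle, ended that of BIRC2 (up to 0.105). In the death receptor list of 10 genes 3 were higher and 1 lower (2 and 2). The TRAIL receptors TNFRSF10B and TNFRSF10A rose by 2.06 and 1.69 (1.31 and 0.95), and the adaptor TRADD by 1.11 as deposited but not on the expressed-gene scale (0.37, adjusted p = 0.375). The deposited TRADD call had an adjusted p of 0.0559 without replicate 1 of TFEB vehicle and 0.124 without replicate 2 of TFEB doxycycline.

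The list of outer membrane channels and MCL1 turnover genes had 5 of 8 higher and 0 lower as deposited, and 6 and 1 on the expressed-gene scale. USP9X, a deubiquitinase that stabilizes the MCL1 protein, went from 1019.5 ± 233 to 6788 ± 1377 (2.74, SE 0.55, adjusted p = 0.000166, and 1.99, SE 0.12), and BTRC, part of a ubiquitin ligase that targets MCL1, from 119 ± 4.24 to 601 ± 251 (2.24 and 1.49). VDAC1, a channel of the outer membrane, rose by 1.87 and 1.11. Without the same 2 libraries the deposited VDAC1 call was lost as well (adjusted p = 0.0815 and 0.0717).

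Of 17 transcription factors known to act on family genes, 8 were higher and 2 lower as deposited, and 7 and 4 on the expressed-gene scale. RELB, an NF-kB subunit, went from 33.9 ± 4.81 to 603 ± 185 (4.08 and 3.33). DDIT3, the stress factor CHOP, went from 308 ± 94.1 to 4687 ± 370 (3.97 and 3.22) and TP73 from 80.2 ± 11.3 to 848 ± 277 (3.34 and 2.59). The RELB level in TFEB vehicle lay close to the upper quartile of all genes (24.8 to 32.0 per library), so the size of its fold is less certain than its direction.

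The same lists were counted with doxycycline in the EV line. There 23.3% of all genes fell and 3.39% rose as deposited, and 5.75% fell and 44.1% rose on the expressed-gene scale. Of the 7290 expressed genes, 17.5% fell and 20.9% rose on the expressed-gene scale. As deposited no list had a called rise, and the falls were 1 of 11 further family genes, 5 of 13 apoptosome and caspase genes, 2 of 7 inhibitors, 4 of 10 death receptor genes, 5 of 8 channel and turnover genes and 6 of 17 transcription factors. On the expressed-gene scale the rises were 6, 4, 3, 3, 1 and 5 in the same order, and the falls 0, 4, 1, 0, 3 and 5. Several of these counts lie near the shares of all genes. VDAC1 and DDIT3 fell on both scales in EV cells, by 2.43 and 2.22 as deposited and by 1.14 and 0.94 on the expressed-gene scale, and rose on both in TFEB cells.

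The genes whose pattern over the 12 libraries lay nearest to a family gene were found among 7312 or 7313 genes with a mean of at least 200, by the root mean square difference of centred log2 values on the deposited scale. For BCL2A1 the nearest was TNFSF14 (0.31, against a spread of 2.90 for BCL2A1 itself), then IGFN1 and SH3D21 (0.40 each). BCL2L1 lay nearest to TOM1 (0.11), ATP6V1A (0.13), a subunit of the lysosomal proton pump, and PPP6R2 (0.14), with a spread of 1.74 of its own. BBC3 lay nearest to TMEM104 (0.16), TPRA1 (0.16) and GGA1 (0.17), with a spread of 1.38, and BAX to PLEKHM2, RNF111 and PI4KA (0.11 each), with a spread of 1.06. These distances share the libraries and their scaling, and are given as a description.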

How the data were processed

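The authors deposited a table of normalized signal, with 1 value for each gene in each library. STAR 2.5.3a and HTSeq 0.6.1 were used, per the submitters' processing notes. Build, annotation and strand setting were not given in the sources used here, which leaves overlapping antisense genes uncertain. All values of a library were whole multiples of 1 number (0.803 to 1.22 by library, tolerance 0.01), and division by it recovered whole reads. For 2 libraries, EV vehicle replicate 2 and TFEB vehicle replicate 3, that number was within 1% of 1, and recovery cannot be told from rounding. RNA was prepared with a NucleoSpin kit and libraries with a NuGEN Ovation FFPE kit, per the labels' protocols.

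The 23128 of 57820 genes with a mean of at least 10 entered limma 3.58.1 (R 4.3.3) as log2(value + 1), with 1 mean per group, all 12 libraries, a variance trend and Benjamini-Hochberg adjustment. Fold differences are on the log2(value + 1) scale, which understates those of low genes. The expressed-gene scale divides each library by the median ratio over 7290 nuclear genes whose mean over all 12 libraries reached 200. Alternatives were TMM factors, equal totals, upper quartiles, pseudocounts of 0.1 and 10, other filters, no trend, a replicate block, fits of only the groups compared, each library left out, and edgeR 4.0.16 and DESeq2 1.42.0 on recovered reads. The leaving out of libraries on the expressed-gene scale was added after seeing the data. The procedure was also run on simulated data that held no shift in scaling between groups. Its recovery rates are not reported here, and it is not used as support for any result.

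The members, lists and tests were chosen with earlier results of these data known. Named were the 10 members, TFEB, up to 3 called genes of each list with the largest difference, and the 3 nearest genes of the 4 members with the largest difference. Whether replicate numbers pair libraries was read from the values, since the labels do not say: a comparison counts as paired where the deviations of all 3 same-number pairs correlate over 0.1. This held between EV vehicle and EV doxycycline (0.21 to 0.72) and between EV vehicle and TFEB vehicle (0.45 to 0.63). It did not hold for comparisons with TFEB doxycycline, whose replicate 2 correlated at -0.21 to -0.12 with the controls of that number. The fit without the block is the main one throughout. Chi-square between replicates was 8.38 to 26.9 per degree of freedom, more than counting error gives. Promoter windows came from RefSeq. Some genes and 1 list chosen by these rules are not reported here.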

Additional observations from a re-analysis of the deposited data

Results flagged for a closer look

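The response to doxycycline differed between the TFEB line and the EV line, by the limma test of the interaction, for 8 of the 10 genes as deposited. The differences in response on the log2 scale were 6.22 for BCL2A1, 4.64 for BCL2L1, 3.74 for BBC3, 3.17 for BID, 3.08 for BAX, 2.52 for MCL1, 2.26 for BAK1 and 1.76 for PMAIP1. The typical expressed gene differed by 2.04 in the same way. On the expressed-gene scale 6 of these were called, at 4.24, 2.61, 1.73, 1.13, 1.05 and 0.48 for the first 6 in that order. BAK1 (0.24, adjusted p = 0.507) and PMAIP1 (-0.27, adjusted p = 0.271) were not. The deposited PMAIP1 call was also lost when any of 5 libraries was left out (TFEB doxycycline replicates 2 and 3, replicate 2 of EV vehicle, replicate 3 of EV doxycycline and replicate 1 of TFEB vehicle, adjusted p up to 0.088).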

How the results depend on the processing

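BCL2A1, BCL2L1, BBC3 and BAX kept their direction and call against TFEB vehicle and EV doxycycline under every setting run. Other signs turned, mostly with the scaling. With equal totals, equal upper quartiles and expressed genes in turn, PMAIP1 against TFEB vehicle was -0.61, -0.45 and -0.50 (edgeR -0.016), and against EV doxycycline -0.46, -0.17 and -0.40. Against EV doxycycline, BCL2 was -0.67, -0.38 and -0.61 and BCL2L11 -1.13, -0.84 and -1.07 (TMM -0.12, edgeR -0.22, DESeq2 -0.0800). In the interaction, BCL2 was -0.48, -0.24 and -0.53, BCL2L11 -1.07, -0.83 and -1.12 (edgeR -0.0475), and PMAIP1 -0.22 with totals and -0.27 with expressed genes. For doxycycline in EV cells, BCL2L1 was 0.50, 0.42 and 0.66 (edgeR 0.0148), BBC3 0.14, 0.0548 and 0.29, BAX 0.000514 with totals and 0.16 with expressed genes, BAK1 0.011 and 0.17, and MCL1 0.11 with expressed genes. Between the vehicle groups, BCL2L1 was 0.0318, 0.0812 and 0.14, BBC3 0.26, 0.31 and 0.36 (TMM 0.14, edgeR 0.13), and with expressed genes BAX 0.00901, BAK1 0.0377 and BCL2L11 0.0484.

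Of the 10 genes, the number called lower against TFEB vehicle was 0 as deposited, 3 under those scalings, 2 with TMM or edgeR and 1 with DESeq2. Against EV doxycycline it was 0, then 3, 1 and 3. Against EV vehicle it was 1, then 3 under each, 2 with TMM, edgeR, DESeq2 or the compared groups alone and 0 with no filter. In EV cells the number called higher was 0, then 2 under each and 1 with TMM or edgeR, and the number lower was 4, then 2 with expressed genes, 7 with a filter at a mean of 50 and 1 with the compared groups alone. In the interaction 1 was lower under each scaling. A pseudocount of 10 moved the BCL2A1/MCL1 change to 4.801 and the BBC3/BCL2L11 change against EV doxycycline to 2.91. Causes beyond the construction of each scaling were not tested.

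With the replicate block, 2 genes were lower against EV vehicle (BCL2L11 joining BCL2) and 7 were lower in EV cells, MCL1 and BAK1 were higher against TFEB vehicle and PMAIP1 against EV doxycycline, and it changed no other call of the 10 genes. Over all groups, a library correlated best with its own number in 24 of 36 comparisons with another group, which is a hint from the data and not part of the design. Leaving out 1 library gave 0 to 2 genes lower against EV vehicle and 0 to 8 lower in EV cells (1 to 3 on the expressed-gene scale), and 1 to 2 lower in the interaction on that scale. It gave -0.0447 to 0.44 for PMAIP1 against TFEB vehicle, -0.24 to 0.74 for BCL2L11 against EV doxycycline and -0.53 to 0.091 for BBC3 between vehicle groups. On the expressed-gene scale the vehicle groups differed by -0.21 to 0.061 for BCL2, -0.0501 to 0.0743 for MCL1, -0.0275 to 0.0702 for BAX, -0.0906 to 0.15 for BAK1 and -0.14 to 0.0112 for BID, and the BAK1 interaction was -0.0359 to 0.41. BCL2A1 in controls lay near background, which limits its fold.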
